A study of Rattus norvegicus with 458 samples.

Results

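The 9 mature microRNAs of 2 conserved clusters were followed through the rat body: miR-17-5p, miR-18a-5p, miR-19a-3p, miR-20a-5p, miR-19b-3p and miR-92a-3p of the miR-17-92 cluster, and miR-106b-5p, miR-93-5p and miR-25-3p of the miR-106b-25 cluster. They were found by name. Of 7534 names in the table of miRNA counts, 17 rows carried a member, 9 of them with a single name and 8 with a composite name that a read could not resolve, and 1 further row for unprocessed precursor reads was left out. The composite rows held 3577 counts against 5948350 for the single names, or 0.0601% of member counts, so the single names are described. Among composite names, 2 passed the filter on low counts, miR-92a-3p;miR-92b-3p with 2054 counts and miR-19a-3p;miR-19b-3p with 1360. The samples were small RNA libraries from naïve Sprague Dawley rats aged 12 to 13 weeks, 5 male and 5 female, which gave 19 tissues from both sexes plus Testicle from the 5 males and Ovary and Uterus from the 5 females. DRG (dorsal root ganglion) was sequenced as 5 technical libraries of each of 2 pools, so its spread is not a spread between rats. Its RNA came from Takeda Pharmaceuticals, per the study's methods, so for DRG tissue and RNA source cannot be told apart. Cortex and Medulla are the parts of the kidney. No rat was treated, every tissue is a whole-organ piece of mixed cell types, and fewer cells of a type cannot be told apart from less of a miRNA per cell.

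MicroRNAs are short RNAs that pair through the seed near their 5′ end with messenger RNAs and reduce their translation and stability. The miR-17-92 cluster is transcribed as one primary RNA under the control of MYC and E2F factors, is required for normal blood cell and lung development, and is amplified in lymphomas; its members act on cell cycle inhibitors such as Cdkn1a. The miR-106b-25 cluster lies inside Mcm7, a gene for a subunit of the helicase that unwinds DNA at replication. Each of its members has a seed also found in miR-17-92. Both clusters are therefore usually studied in dividing cells, and the tissues were compared on that line: the small intestine (Duodenum, Jejunum and Ileum, called gut here), Testicle and WholeBlood, against 7 tissues whose main cells rarely divide in the adult, namely Brainstem, Cerebellum, Cerebrum, Hippocampus, Heart, Muscle - Biceps and Muscle - Soleus (the resting tissues). These 7 were a choice, and organs such as Liver, Kidney and Pancreas lay outside all of these sets. Cell division was not measured, so the comparisons are between tissues and not between dividing and resting cells.

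The mature sequences are shown because the seed, bases 2 to 8 printed in capitals, sorts the 9 members into 4 groups that cut across the clusters. They are the RefSeq forms on build GRCr8, written 5′ to 3′, and the first 4 share the seed AAAGUGC.
miR-17-5p: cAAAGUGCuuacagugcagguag
miR-20a-5p: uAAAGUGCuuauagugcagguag
miR-106b-5p: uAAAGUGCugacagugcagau
miR-93-5p: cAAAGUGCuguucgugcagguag
miR-18a-5p: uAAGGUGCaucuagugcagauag
miR-19a-3p: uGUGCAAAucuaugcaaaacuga
miR-19b-3p: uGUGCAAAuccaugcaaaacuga
miR-92a-3p: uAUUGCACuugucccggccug
miR-25-3p: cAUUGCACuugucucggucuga

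Position by position, miR-17-5p and miR-20a-5p were identical at 21 of 23 bases and miR-19a-3p and miR-19b-3p at 22 of 23. Across the clusters, miR-17-5p matched miR-93-5p at 19 of 23 bases, and miR-92a-3p matched miR-25-3p at 18 of 21. On GRCr8 the 6 hairpins of miR-17-92 occupy 785 bases of chromosome 15, plus strand, from Mir17 at chr15:98587848-98587931 to Mir92a1 at chr15:98588555-98588632. The 3 hairpins of miR-106b-25 occupy 494 bases of chromosome 12, minus strand, chr12:22156641-22157134, within the span of Mcm7 at chr12:22155921-22163320. A related cluster on the X chromosome (miR-106a-363, chrX:137342777-137343647, minus strand) also encodes the mature sequences of miR-17-5p, miR-19b-3p and miR-92a-3p, so counts of these 3 members can come from either place.

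Library totals ran from 376401 to 17725805 counts over the 215 libraries, with a median of 4816409, and the 5 Testicle libraries were the shallowest at 376401 to 653651. The 9 members together made up 0.0639% to 3.53% of a library's counts, with a median of 0.442%. By tissue medians, the listed marker miRNAs were highest in the tissues they are named for, except those of white cells. The 5 gut epithelial markers together had a median of 589600 CPM in Jejunum, 450300 in Ileum and 366400 in Duodenum. CPM is a library's counts scaled so that every library has the same total. The 5 testis markers together had a median of 12500 CPM in Testicle and 713.5 in Ovary, and were at 0 in every WholeBlood library. The white cell markers together had a median of 1557 CPM in WholeBlood, below 3366 in Liver and 3290 in Heart. Single libraries departed from their labels. The gut epithelial sum fell to 365.5 CPM in the lowest Duodenum library. In the highest libraries of Adrenal, Hippocampus, Ovary and Uterus it reached 363200, 372200, 426500 and 421700 CPM. Each library was also correlated with all others on log2(CPM + 1), and for 27 of the 215 the median correlation was higher with another tissue than with their own label. In most of these the excess was at most 0.0194, between related tissues such as Cortex and Kidney or Cerebrum and Hippocampus. In 10, called the set-apart libraries here, it was 0.0668 or more (the threshold was 0.05): 4 of Duodenum (rats 2, 4, 7 and 11), 3 of Hippocampus (rats 2, 6 and 7), and 1 each of Adrenal (rat 8), Ovary (rat 11) and Uterus (rat 8). Fold changes and ratios that include Duodenum are given with and without them.

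Levels are CPM, given as the mean ± SD over libraries. Within miR-17-92, miR-92a-3p was the most counted member in all 23 tissues. Its level was 18810 ± 4746 CPM in WholeBlood (n = 10), 16680 ± 1707 in Testicle (n = 5) and 12230 ± 1718 in Liver (n = 10), and then dropped to 4022 ± 616 in Jejunum (n = 10). Those first 3 tissues stood in that order by mean, but WholeBlood and Testicle differed by less than the larger SD, whereas Liver lay above Jejunum by more than it. The lowest level was 519 ± 75.7 CPM in Cerebellum (n = 10).

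miR-17-5p, which gives the cluster its name, and miR-20a-5p, which shares its seed, had the same pair of tissues on top. miR-17-5p reached 512 ± 82.6 CPM in WholeBlood, 327 ± 50.6 in Testicle, 118 ± 43.0 in Ovary (n = 5) and 114 ± 12.2 in Liver, against 8.79 ± 2.54 in the non-glandular stomach, where it was lowest. miR-20a-5p reached 314 ± 51.7 CPM in Testicle, 244 ± 53.4 in WholeBlood, 118 ± 12.3 in Liver and 90.1 ± 10.7 in Ovary. WholeBlood and Testicle thus stood in swapped order for these 2 near-identical miRNAs.

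The other 3 members of miR-17-92 were highest in Testicle and low in WholeBlood relative to miR-17-5p. miR-18a-5p was at 71.1 ± 15.6 CPM in Testicle and 19.5 ± 10.4 in WholeBlood, with Jejunum at 16.2 ± 4.30. miR-19a-3p, one of a pair with a common seed, was at 104.5 ± 26.6 CPM in Testicle, 56.0 ± 16.0 in Pancreas, 32.9 ± 11.2 in Liver and 12.5 ± 6.40 in WholeBlood. Its partner miR-19b-3p was at 657 ± 163 CPM in Testicle, 577 ± 209 in Pancreas, 377 ± 109 in Liver and 86.1 ± 37.7 in WholeBlood, a difference between Testicle and Pancreas smaller than either SD. Pancreas therefore ranked second for the miR-19 pair but not for the rest of the cluster. All Pancreas libraries came from repeated RNA extractions. The study reports the lowest RNA integrity for pancreas, and the fewest reads assigned to mature miRNAs. Whether RNA quality changed the Pancreas levels and ratios was not tested.

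In miR-106b-25 the spread between tissues was narrower apart from WholeBlood and Testicle. miR-25-3p was at 6318 ± 1357 CPM in WholeBlood, 3083 ± 272 in Testicle and 1712 ± 233 in Pancreas, and was lowest in the non-glandular stomach at 290 ± 74.4. miR-93-5p was at 1504 ± 428 CPM in WholeBlood, 1432 ± 189 in Testicle and 814 ± 85.5 in Brainstem, and was the only member with a brain region ranked next after that pair. miR-106b-5p was at 159.7 ± 22.4 CPM in Testicle, 76.4 ± 31.0 in Ovary, 71.0 ± 6.57 in Liver and 60.2 ± 24.9 in WholeBlood, and the last 3 did not differ beyond their SD. Along each member's order of 23 tissues, most neighbours were not resolved: the gap on the log2(CPM + 1) scale exceeded the larger SD in 8 of 22 neighbouring pairs for miR-20a-5p, in 6 for miR-17-5p and miR-19b-3p, and in 2 for miR-18a-5p and miR-106b-5p.

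Between these ends, miR-17-5p showed how organs and their parts compared. It was at 74.2 ± 10.5 CPM in Medulla, 74.05 ± 16.8 in Cortex and 60.8 in the whole Kidney (lowest 43.1, highest 74.9), which did not differ beyond the SD of Cortex. Brain regions were less alike, with 56.5 ± 9.52 in Brainstem, 51.9 ± 5.83 in Cerebrum and 14.5 ± 2.80 in Cerebellum. Heart held more than the limb muscles, at 42.4 ± 7.21 against 18.6 ± 2.29 in Biceps and 18.2 ± 2.89 in Soleus. In tissues with set-apart libraries, leaving those out lowered the mean of Hippocampus from 58.7 ± 37.5 to 41.3 ± 4.53 and that of Uterus from 48.0 ± 38.2 to 31.0 ± 3.01, and raised that of Duodenum from 86.0 ± 46.7 to 120.2 ± 17.2. By contrast, miR-25-3p fell in small steps over the middle of its order. From Liver at 1378 ± 67.0 CPM down to Cerebrum at 658 ± 37.5 no neighbouring tissues differed beyond the larger SD. Liver and Cerebrum themselves differed by more than either SD. Cerebellum, the lowest tissue of miR-92a-3p, lay between them at 898 ± 106.2.

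**Figure D1:**
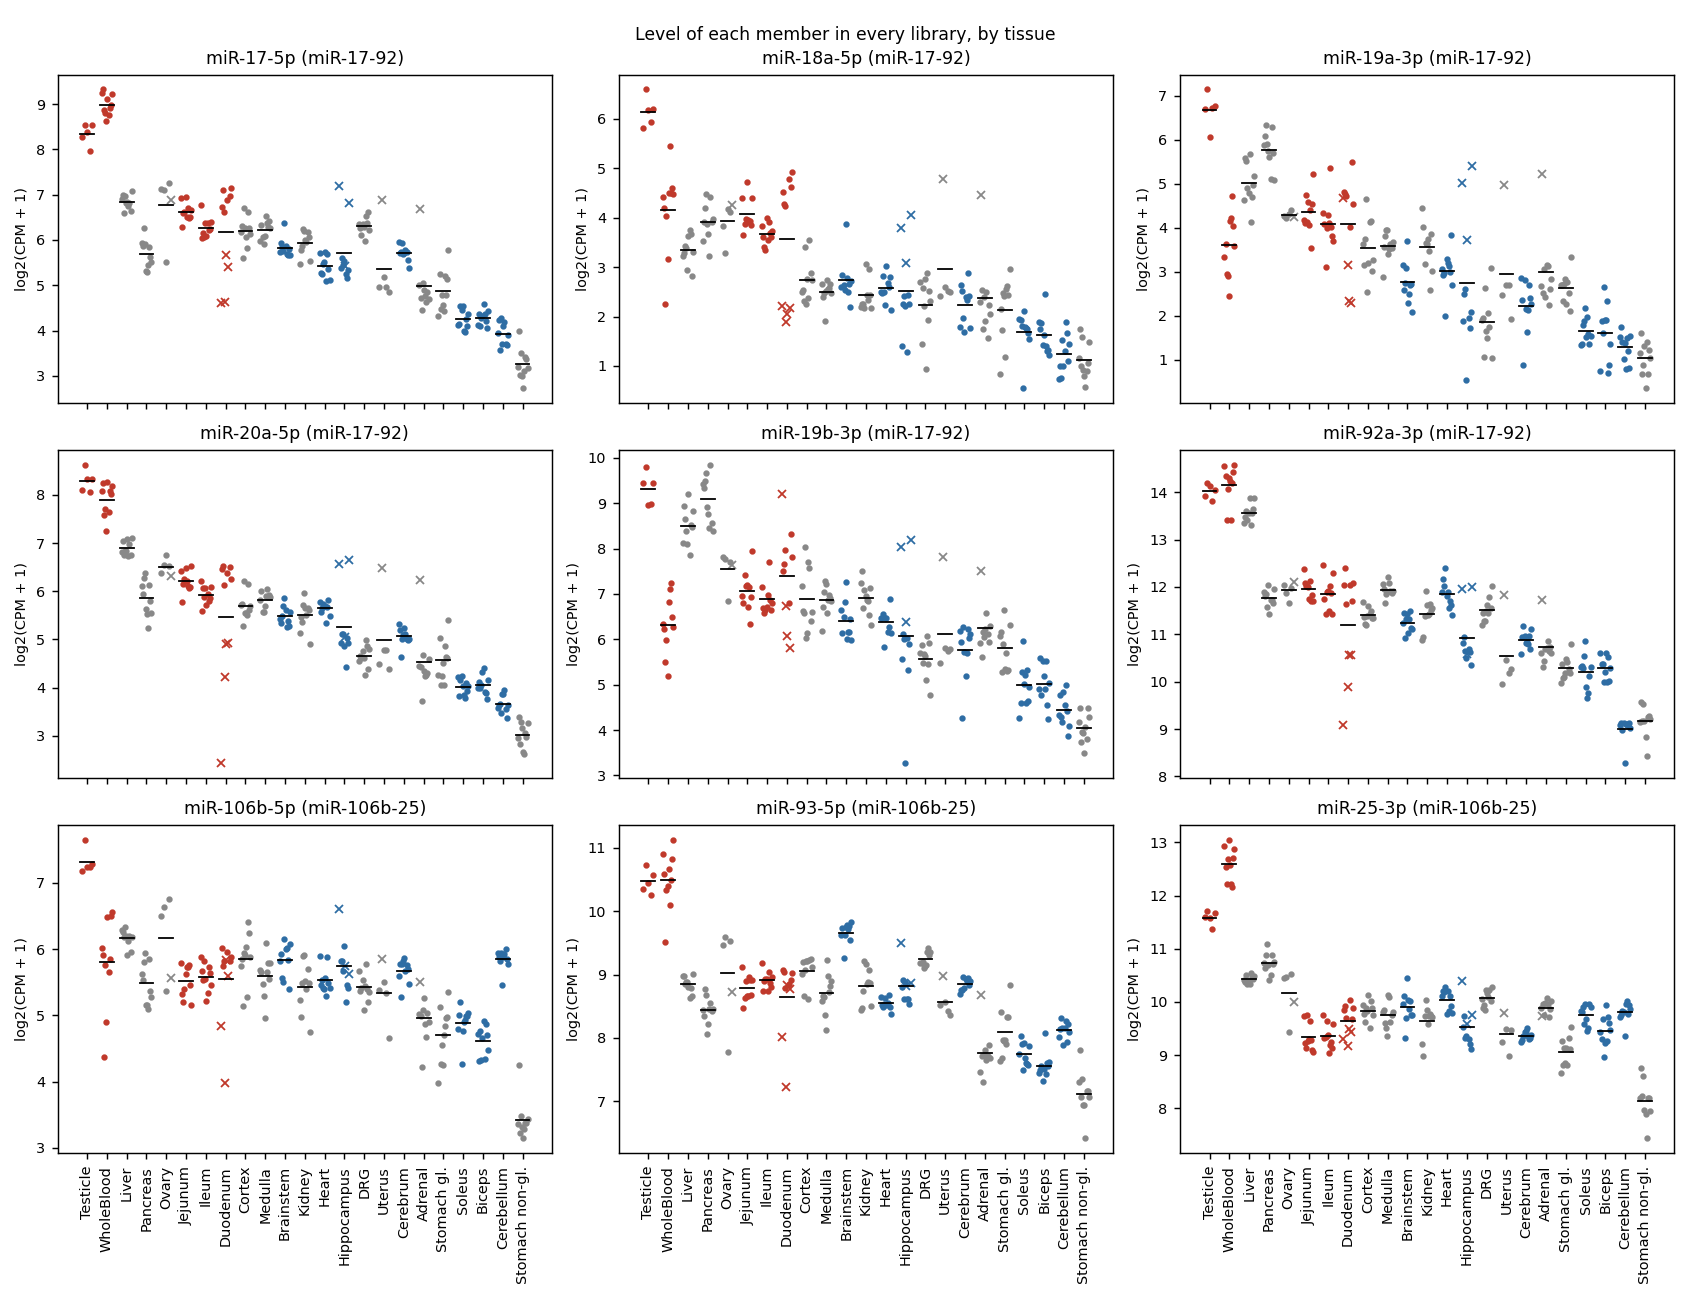
log2(CPM + 1) of each of the 9 members in every library, 1 panel per member and 1 column per tissue; red marks gut, Testicle and WholeBlood, blue the resting tissues, grey the other tissues, crosses the 10 set-apart libraries (closer to another tissue by more than 0.05 in correlation), and black lines the means on that scale. Testicle and WholeBlood lie far above the resting tissues for miR-17-5p, miR-92a-3p and miR-25-3p, while WholeBlood falls back among the other tissues for miR-19b-3p and miR-106b-5p.

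The first comparison set the 5 Testicle libraries against the 70 libraries of resting tissues. Testicle miR-17-5p was at 310 CPM in rat 2, 369 in rat 3, 333 in rat 4, 250 in rat 5 and 373 in rat 6, while the resting tissues ran from 10.9 to 144 with a median of 37.6. Testicle miR-18a-5p was at 55.5 in rat 2, 95.6 in rat 3, 71.9 in rat 4, 59.8 in rat 5 and 72.8 in rat 6, against 0.473 to 15.6 with a median of 3.34. For both miRNAs every Testicle library was above every resting library.

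The same held in the second cluster, by a smaller margin. Testicle miR-93-5p was at 1304 CPM in rat 2, 1706 in rat 3, 1397 in rat 4, 1229 in rat 5 and 1524 in rat 6, and the resting tissues ran from 159 to 905 with a median of 369. Testicle miR-25-3p was at 3116, 3347, 3061, 2640 and 3252 CPM in the same rats, against 497 to 1399 with a median of 853. All 9 members were higher in Testicle without overlap, with or without the set-apart libraries, and 9.02% of the 1641 names tested were higher without overlap too.

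On counts scaled by the upper quartile, edgeR's quasi-likelihood test with Benjamini-Hochberg adjustment over 1641 names called all 9 members higher in Testicle than in the resting tissues, beside 24.7% of all names called higher and 19.4% called lower. The log2 fold changes split by cluster. In miR-17-92 they were 2.18 ± 0.26 (SE) for miR-17-5p, 3.21 ± 0.32 for miR-18a-5p, 3.44 ± 0.35 for miR-19a-3p, 2.41 ± 0.26 for miR-20a-5p, 2.44 ± 0.30 for miR-19b-3p and 2.23 ± 0.24 for miR-92a-3p. In miR-106b-25 they were 0.75 ± 0.25 for miR-106b-5p, 0.87 ± 0.24 for miR-93-5p and 0.74 ± 0.23 for miR-25-3p, with edgeR adjusted p of 0.00909, 0.000978 and 0.00437. The median over members was 2.23 and over all names tested -0.20. Scaled by library totals alone, the 3 values in miR-106b-25 were 1.89, 2.01 and 1.88, miR-17-5p was at 3.34 and the median over all names moved to 0.79. The 3 calls in miR-106b-25 were lost with no filter on low counts (adjusted p 0.36, 0.0616 and 0.102) and with Liver, Kidney, Cortex, Medulla, Adrenal and Pancreas added to the resting tissues (0.452, 0.219 and 0.676), and the call of miR-106b-5p was lost without Testicle replicate 4 (0.0545). The 6 calls in miR-17-92 held under each of these.

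In gut, the 2 clusters also parted. Across the 30 gut libraries miR-17-5p ran from 23.3 to 142 CPM with a median of 89.0, miR-92a-3p from 544 to 5619 with a median of 3767, and miR-19a-3p from 3.94 to 44.2 with a median of 16.95. In the resting tissues the medians of these were 37.6, 1630 and 3.28 CPM. Without the set-apart libraries, the 26 gut libraries ran from 65.1 to 142 CPM for miR-17-5p, from 2747 to 5619 for miR-92a-3p and from 7.68 to 44.2 for miR-19a-3p. The gut medians were thus the higher ones, but both sets overlapped for all 9 members, with or without the set-apart libraries. Of the 1641 names tested, 0.00% were higher in gut without overlap with all libraries, and 1.95% without the set-apart ones.

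For miR-106b-25 the CPM values barely separated: miR-106b-5p ran from 14.7 to 64.0 with a median of 49.4 in gut and from 18.3 to 96.0 with a median of 45.8 in the resting tissues. The gut median of miR-25-3p was 655 CPM and its resting median 853, so by library totals it stood lower in gut.

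With upper quartile scaling, edgeR called all 9 members higher in gut, beside 36.3% of all names called higher and 20.0% called lower. The log2 fold changes in miR-17-92 were 2.62 ± 0.14 (SE) for miR-17-5p, 3.26 ± 0.19 for miR-18a-5p, 3.43 ± 0.21 for miR-19a-3p, 2.45 ± 0.15 for miR-20a-5p, 2.65 ± 0.17 for miR-19b-3p and 2.35 ± 0.13 for miR-92a-3p. They were 1.29 ± 0.12 for miR-106b-5p, 1.49 ± 0.12 for miR-93-5p and 0.90 ± 0.11 for miR-25-3p, and the median over all names tested was 0.37. Scaled by library totals alone, miR-25-3p was lower in gut, at -0.24 on the log2 scale (edgeR adjusted p 0.000304), miR-106b-5p was not called (0.13, adjusted p 0.18), and the median over all names moved to -0.48. Without the 10 set-apart libraries the 9 log2 fold changes ran from 1.28 for miR-25-3p to 4.13 for miR-19a-3p.

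With upper quartile scaling, WholeBlood gave the largest fold changes of the 3 comparisons for all 9 members. By library totals, Testicle exceeded it for miR-19b-3p (3.68 against 0.75) and miR-106b-5p (1.89 against 0.48). Mean CPM was also higher in Testicle for miR-18a-5p (71.1 against 19.5), miR-19a-3p (104.5 against 12.5) and miR-20a-5p (314 against 244). For miR-17-5p, miR-92a-3p, miR-93-5p and miR-25-3p mean CPM was higher in WholeBlood. miR-486-5p, an abundant red cell miRNA, took 85.9% ± 3.12 of WholeBlood counts (n = 10), against tissue means of 0.0270% in Jejunum to 5.85% in Heart. With names that hold miR-486-5p left out of the total, the WholeBlood mean rose to 3728 CPM for miR-17-5p, 132700 for miR-92a-3p and 45760 for miR-25-3p.

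By CPM of the whole library, miR-17-5p in WholeBlood ran from 392.5 to 639 with a median of 492, miR-92a-3p from 10830 to 24470 with a median of 19730, and miR-25-3p from 4592 to 8444 with a median of 6354. These 3 and miR-20a-5p (151 to 308, median 262) were above every resting library, that is 4 of 9 members beside 1.10% of all names tested. WholeBlood miR-19b-3p, at 35.4 to 151 CPM with a median of 77.9, lay inside the resting range of 8.65 to 291. miR-106b-5p, miR-93-5p, miR-18a-5p and miR-19a-3p overlapped as well.

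edgeR called all 9 members higher in WholeBlood, beside 37.5% of all names called higher and 17.6% called lower. The log2 fold changes were 7.44 ± 0.18 (SE) for miR-17-5p, 6.95 ± 0.17 for miR-92a-3p, 6.65 ± 0.18 for miR-20a-5p, 6.16 ± 0.23 for miR-18a-5p, 5.15 ± 0.26 for miR-19a-3p and 4.31 ± 0.21 for miR-19b-3p. In miR-106b-25 they were 6.35 ± 0.14 for miR-25-3p, 5.53 ± 0.14 for miR-93-5p and 3.93 ± 0.15 for miR-106b-5p. The size depends on the scaling: by library totals the values were 3.99 for miR-17-5p, 0.75 for miR-19b-3p and 0.48 for miR-106b-5p, while all names went from 615 called higher and 289 lower to 112 and 742. All 9 calls held under library totals and under TMM, where miR-17-5p was at 5.90.

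**Figure D2:**
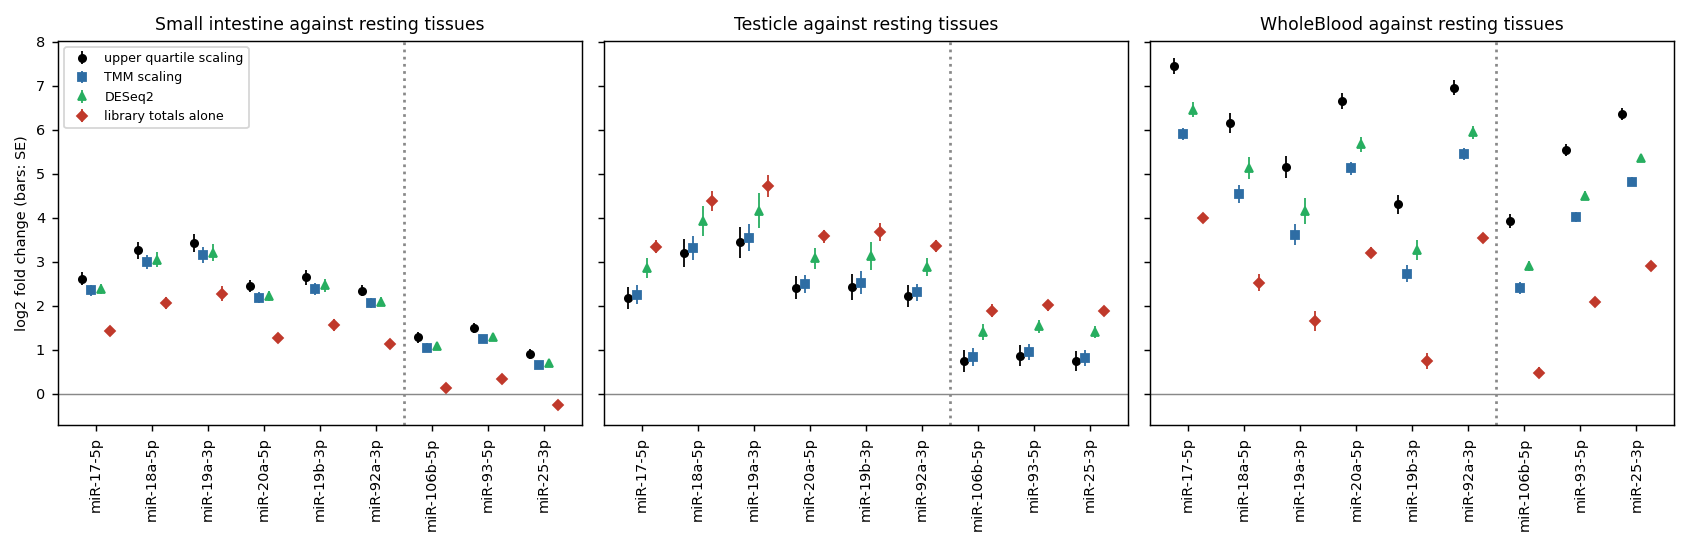
log2 fold change of each member against the 7 resting tissues in gut, Testicle and WholeBlood, under 4 scalings (black circles upper quartile, blue squares TMM, green triangles DESeq2, red diamonds library totals), with bars of 1 SE and a dotted line between the clusters. With the upper quartile, in gut and Testicle the 6 members of miR-17-92 lie at 2.18 or more and the 3 of miR-106b-25 at 1.49 or less, and library totals put miR-25-3p in gut at -0.24.

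Red cell markers were set beside the members, since every tissue holds some blood. The sum of the 4 listed markers, miR-451-5p, both miR-144 arms and miR-486-5p, was 808600 to 914300 CPM in WholeBlood. It reached 6.85% of its WholeBlood level in Heart, 6.22% in Biceps, 2.69% in Cerebellum, 0.816% in Testicle and 0.033% in Jejunum. In Heart the members stood at 8.29% (miR-17-5p) to 97.0% (miR-19b-3p) of their WholeBlood level, all above the marker sum. In Biceps they stood at 3.64% (miR-17-5p) to 39.35% (miR-106b-5p), and miR-17-5p alone was below the marker sum. In Testicle and Jejunum miR-17-5p was at 64.0% and 19.2%. All 6 of the listed white cell markers were found, and their sum, 535 to 2379 CPM over the WholeBlood libraries, was not confined to blood. It was 953 to 1073 CPM in Testicle, 803 to 3448 in Ileum and 2875 to 4049 in Heart, so by this sum a resting tissue held more of these markers than Testicle did. The part of white cells in the gut and Testicle values was not tested.

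Beyond the members, a list of 21 related miRNAs covered the other arm of each hairpin, the X chromosome cluster and other miRNAs with the seed of miR-25-3p. All 21 were in the table and 16 passed the filter on low counts. In gut 14 of the 16 were called higher (36.3% of all names), 1 lower and 1 was not called, in Testicle 11 were higher (24.7%) and 5 not called, and in WholeBlood 15 were higher (37.5%) and 1 not called. In the X chromosome cluster miR-363-3p, which has the seed of miR-92a-3p, was higher by 3.02 ± 0.18 (log2, SE) in gut, 3.72 ± 0.29 in Testicle and 5.28 ± 0.22 in WholeBlood, while miR-20b-3p of the same cluster was at 2.71 ± 0.31, -2.36 ± 1.77 (not called, edgeR adjusted p 0.413) and 4.53 ± 0.44. miR-92b-3p, another miRNA with that seed, was lower in gut, at -1.28 ± 0.23 (edgeR adjusted p 3.96e-07), and was not called at -1.12 ± 0.51 in Testicle (0.0651) and -0.68 ± 0.35 in WholeBlood (0.0967).

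The study states that ligase bias affected how well its sequencing measured amounts. Shares and ratios between different miRNAs are therefore those of counts, and their relative amounts in a tissue were not tested. Within miR-17-92, counts were far from even. miR-92a-3p held 82.3% of the cluster's counts in Pancreas and 95.3% in WholeBlood, the lowest and the highest tissue means. miR-19b-3p took 13.5% in Pancreas and 0.475% in WholeBlood. Of all member counts, miR-17-92 gave 86.9% ± 1.61 in Liver, 79.5% ± 0.703 in Testicle, 79.1% ± 2.24 in Jejunum and 71.1% ± 3.18 in WholeBlood, and 31.5% ± 1.94 in Cerebellum, the one tissue in which miR-106b-25 gave more counts than miR-17-92.

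A seed is supplied by several miRNAs at once, so the mix of counts was also read by seed. Among counts with the seed AAAGUGC, miR-93-5p gave the largest share in every tissue, from 60.2% in Liver to 84.4%. Among counts with the seed AUUGCAC, miR-92a-3p gave 89.3% in Liver, but miR-92b-3p, at 11350 ± 2133 CPM in Cerebrum, gave 81.3% there, 75.0% in Brainstem and 51.6% in Cerebellum. Its share of 22.6% in Duodenum rests on the set-apart libraries: miR-92b-3p in Duodenum ran from 20.2 to 16960 CPM with a median of 72.1. In DRG, miR-363-3p gave 6.98%.

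Members of one cluster leave the same transcript, but miR-17-5p, miR-19b-3p and miR-92a-3p can also come from the X chromosome. Ratios within a library do not depend on how libraries are scaled. For 10 ratios, 1 value per rat and tissue set was formed as the mean log2 ratio over that set's libraries, and sets were compared by two-sided permutation tests adjusted over 30 tests. In WholeBlood all 10 ratios differed from the resting tissues. miR-19b-3p over miR-17-5p was -2.68 ± 0.65 (SD, 10 rats) against 0.57 ± 0.13 in the resting tissues, a difference of -3.26 without overlap (permutation p 2e-05, the smallest the resamples can give, adjusted 0.000109). miR-19a-3p over miR-17-5p differed by -2.30 and miR-18a-5p over miR-17-5p by -1.63.

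In the second cluster the WholeBlood ratios moved toward miR-25-3p. miR-25-3p over miR-106b-5p was 6.82 ± 0.71 (10 rats) against 4.28 ± 0.06, a difference of 2.54 (permutation p 6e-05, adjusted 0.000129), and miR-93-5p over miR-106b-5p differed by 1.67. By mean log2 ratio, miR-106b-5p had the fewest counts of the 3 members of that transcript in every tissue. Its gaps to miR-93-5p and miR-25-3p were widest in WholeBlood.

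In gut 9 of 10 ratios passed. miR-19a-3p over miR-17-5p was -2.25 ± 0.35 (10 rats) in gut against -3.20 ± 0.16, higher by 0.96 (permutation p 4e-05, adjusted 0.000109), and miR-18a-5p over miR-17-5p was higher by 0.61. As gut minus resting tissues, miR-20a-5p and miR-92a-3p over miR-17-5p differed by -0.21 and -0.32. miR-19b-3p over miR-17-5p was 0.76 ± 0.37 against 0.57 ± 0.13 and was not called (permutation p 0.127, adjusted 0.137). The 2 ratios between clusters moved most: miR-25-3p over miR-92a-3p was -2.22 ± 0.28 against -0.94 ± 0.13 (difference -1.28), and miR-106b-5p plus miR-93-5p over miR-17-5p plus miR-20a-5p differed by -0.99, both without overlap between rats. Without the set-apart libraries 9 of 10 ratios passed again, and those 2 differences were -1.50 and -1.19, with miR-19a-3p over miR-17-5p higher by 1.02.

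Testicle gave the same direction between clusters, with 7 of 10 ratios past the threshold. miR-25-3p over miR-92a-3p was -2.43 ± 0.09 (5 rats) in Testicle, a difference of -1.50 from the resting tissues, and miR-106b-5p plus miR-93-5p over miR-17-5p plus miR-20a-5p was 1.31 ± 0.07 against 2.79 ± 0.11, a difference of -1.48. Both had an exact permutation p of 0.000666, the smallest that 5 against 10 rats can give, and an adjusted p of 0.000869. Within miR-17-92, miR-19a-3p over miR-17-5p was higher by 1.54 and miR-18a-5p by 1.10, whereas miR-92a-3p over miR-17-5p differed by 0.02 (exact permutation p 0.695). miR-25-3p over miR-106b-5p differed by -0.01 (exact permutation p 0.848) and miR-93-5p over miR-106b-5p by 0.11 (adjusted p 0.0503, exact permutation).

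A limit of the Testicle ratios is that 1 library per rat stood against a mean of 7 tissues. With rat as a block (exact sign flips of the differences within 5 rats, which cannot go below p 0.0625), 0 of 10 Testicle ratios passed, with the same 2 between-cluster differences at -1.57 and -1.53, each at adjusted p 0.075. On flow cell D1GBMACXX alone, which held a part of the reads of every library, 3 of 10 Testicle ratios passed.

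**Figure D3:**
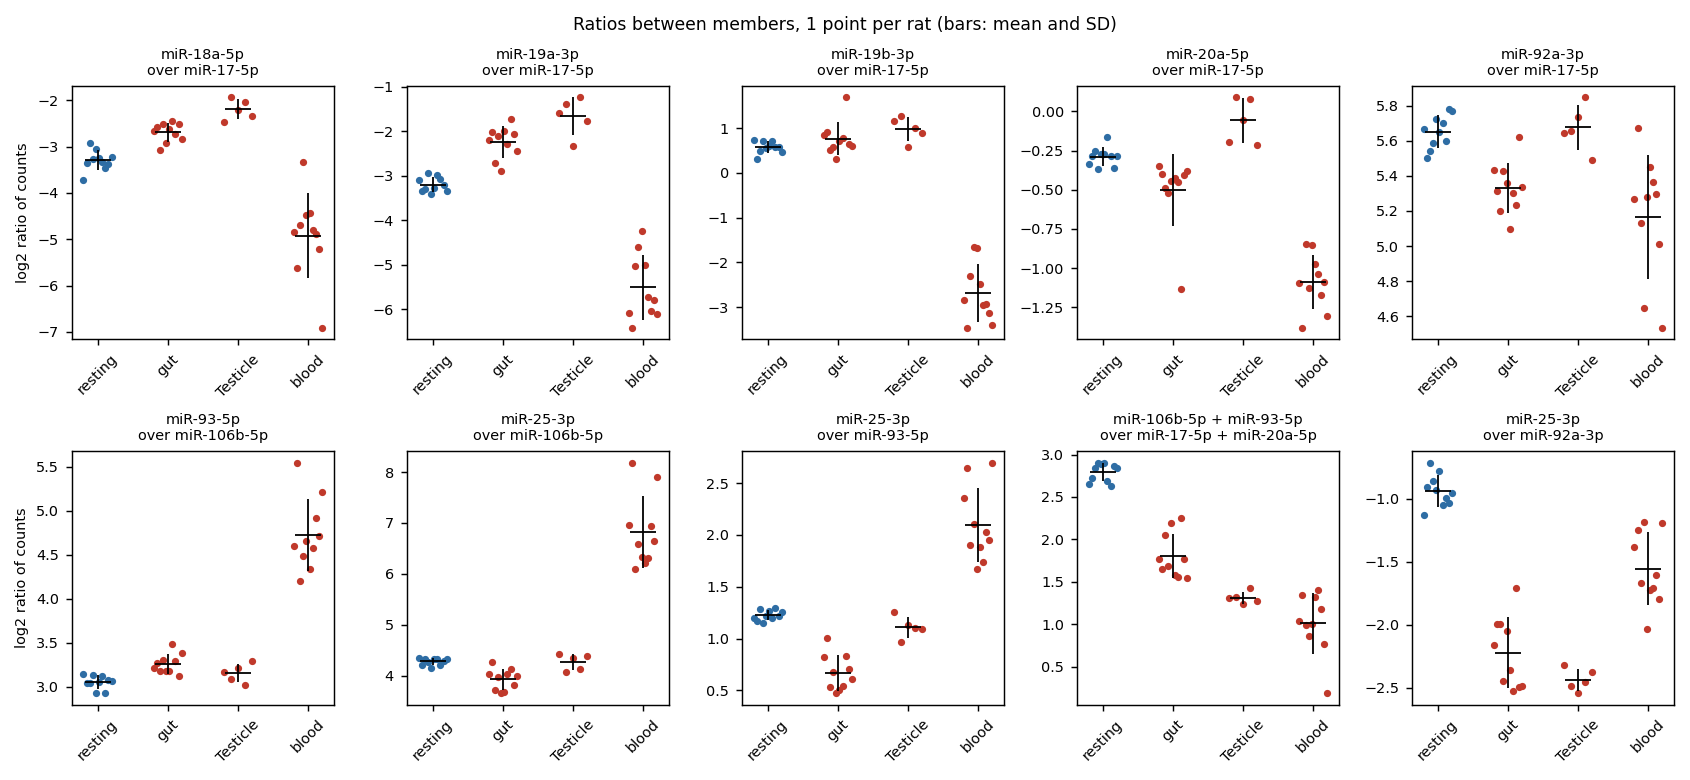
The 10 log2 ratios between members, 1 point per rat and tissue set (10 rats for gut, WholeBlood and the resting tissues, 5 for Testicle), blue for the resting tissues and red for the others, with black bars at the mean and SD. WholeBlood lies apart for miR-19b-3p over miR-17-5p at a mean of -2.68, and gut and Testicle lie below the resting tissues for miR-25-3p over miR-92a-3p.

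Single tissues outside the sets held the extremes of several ratios. In Pancreas miR-19a-3p over miR-17-5p was 0.08 ± 0.30 and miR-18a-5p over miR-17-5p -1.85 ± 0.37 (log2, 10 libraries), the highest means among the 23 tissues. These libraries had the lowest RNA integrity of the study, and its effect on the ratios was not tested. DRG was at the other end of the solid tissues for miR-19a-3p over miR-17-5p, at -4.79 ± 0.70, and WholeBlood below it at -5.50 ± 0.73. In DRG miR-17-2-3p of the X chromosome gave 61.2% of its counts together with miR-17-1-3p of chromosome 15. The part of X chromosome reads in the DRG ratio was not tested.

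Each hairpin yields 2 arms, and the ratio of their counts also differed between tissues. The other arm of the miR-106b hairpin, miR-106b-3p, is shown because its share in WholeBlood lay far from that in the other tissues. Its RefSeq sequence, with bases 2 to 8 in capitals, has no seed in common with the 9 members.
miR-106b-3p: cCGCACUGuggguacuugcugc

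In WholeBlood miR-106b-3p was at 175 to 374 CPM with a median of 277, and miR-106b-5p at 19.7 to 93.8 with a median of 58.0. The 3p arm made up 75.2% to 92.6% of the 2 arms over the 10 WholeBlood libraries, a mean log2 ratio of 2.30 ± 0.64. In the other 22 tissues the mean log2 ratio was between -1.50 in Ileum and -0.01 in Biceps, so the 5p arm was on average the more counted or the equal one. A single library of the 205 outside blood came near the WholeBlood values, Duodenum of rat 7 with 275 counts of the 3p arm and 69 of the 5p arm (79.9%), which is a set-apart library. Against the resting tissues, miR-106b-3p was higher in WholeBlood by 6.82 ± 0.14 (log2, SE), compared with 3.93 ± 0.15 for miR-106b-5p, and this difference between arms was not tested.

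For miR-92a the arms moved the other way. miR-92a-1-5p, the other arm of the chromosome 15 hairpin, was at 131 ± 17.2 CPM in Testicle (n = 5), its highest tissue, and at 2.66 ± 1.20 in WholeBlood (n = 10), with 175 counts over 10 libraries beside 1197332 of miR-92a-3p. The log2 ratio of miR-92a-1-5p to miR-92a-3p was -12.86 ± 0.62 in WholeBlood, -8.01 ± 0.28 in Jejunum and -6.98 ± 0.11 in Testicle. Because miR-92a-3p is also encoded on the X chromosome, the arm ratio compares 1 hairpin with the sum of 2.

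**Figure D4:**
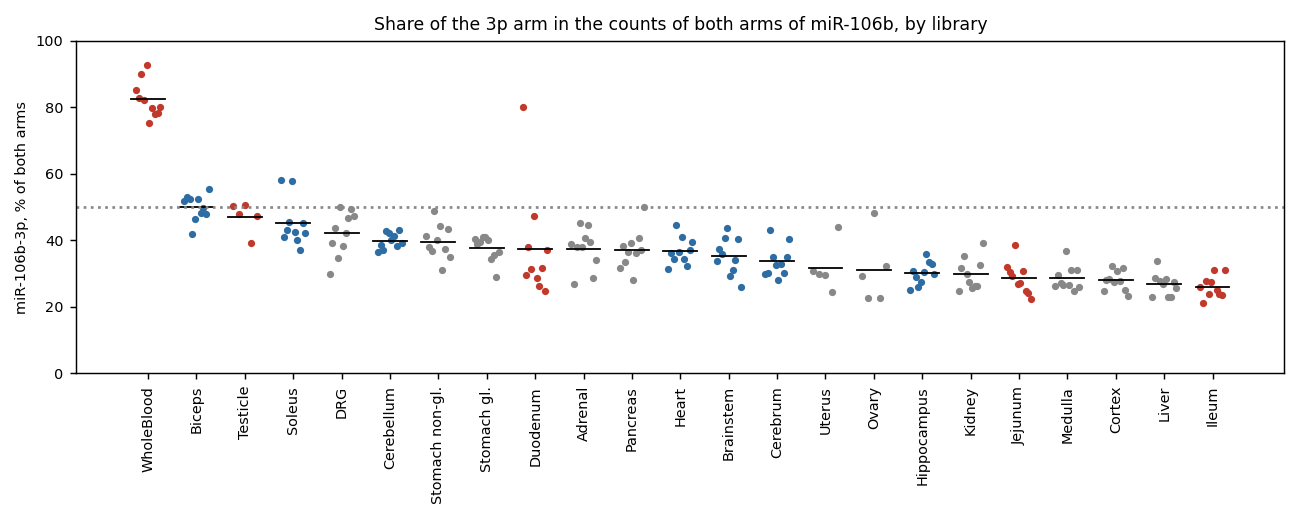
Share of miR-106b-3p in the counts of both miR-106b arms, 1 point per library, by tissue and coloured as in the plot of levels, with black lines at the means and a dotted line at 50%. All 10 WholeBlood libraries lie between 75.2% and 92.6%, and outside blood the highest point is 1 Duodenum library at 79.9%.

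For 3 members the other arms of the 2 genomic copies carry separate names. miR-17-2-3p of the X chromosome gave 516 counts and miR-17-1-3p of chromosome 15 gave 7936 over all libraries, a share of 6.11% for X (exact Clopper-Pearson 95% interval 5.6% to 6.64%, counting error only). DRG was unlike the rest, with 137 against 87 counts, or 61.2% (54.4% to 67.6%), followed by Testicle at 18.2% (10.3% to 28.6%), and no other tissue was above the 13.6% of Cortex. For miR-92a the X arm gave 3 counts and the chromosome 15 arm 10434, and for miR-19b 1 and 110. The arms did not give one share, since in DRG the X arm of miR-92a had 1 count against 101 (0.98%). Other X chromosome miRNAs were also highest in DRG: miR-363-3p at 414 ± 70.4 CPM, with Testicle next at 148.5 ± 14.9, and miR-20b-5p at 37.4 ± 10.6, with Testicle next at 7.07 ± 3.46 (n = 10 technical libraries and 5). miR-18b-5p was higher in Testicle at 19.5 ± 2.75 CPM than in DRG at 8.66 ± 3.78. The Mir106a hairpin encodes the mature sequence named miR-17-5p, so its reads count under that name. The separate name miR-106a-5p, at a mean below 0.1 CPM in all of these tissues, does not give the level of that hairpin.

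The table of read variants (isomiRs) was read for 65 runs of 7 tissues. For 4 members, and for miR-106b-3p, the most counted form was not the RefSeq form. Those of 3 members and of miR-106b-3p are printed as sequenced, with bases 2 to 8 in capitals, because in these forms the seed is kept while the 3′ end moves.
miR-92a-3p: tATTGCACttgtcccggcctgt
miR-19b-3p: tGTGCAAAtccatgcaaaactg
miR-93-5p: cAAAGTGCtgttcgtgcaggt
miR-106b-3p: cCGCACTGtgggtacttgct

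The printed miR-92a-3p form is 1 base longer than RefSeq and made up 56.3% of its counts, against 4.67% for the exact RefSeq form. The miR-19b-3p form is 1 base shorter (62.7% against 21.1%), as was that of miR-19a-3p (39.5% against 36.9%, not printed), and the miR-93-5p form 2 bases shorter (40.7% against 25.6%). miR-17-5p, miR-18a-5p, miR-20a-5p, miR-106b-5p and miR-25-3p were most often read as in RefSeq, with 69.0% for miR-25-3p.

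Reads that run beyond the RefSeq 3′ end were most frequent in Testicle for the miR-17-92 members with a 5p guide. For miR-17-5p they made up 42.6% ± 6.82 of counts in Testicle (n = 5), 33.5% ± 3.20 in Jejunum and 33.1% ± 5.80 in Ileum, but 21.7% ± 4.44 in Heart, 21.1% ± 5.87 in Biceps, 18.6% ± 3.30 in Cerebrum and 17.2% ± 1.66 in WholeBlood (n = 10 each). miR-20a-5p gave nearly the same series, from 44.9% ± 6.22 in Testicle to 17.6% ± 1.62 in WholeBlood. Testicle, Jejunum and Ileum thus stood above Heart, Biceps and Cerebrum, while WholeBlood stood with the latter.

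miR-93-5p differed in that WholeBlood, at 19.9% ± 1.69, came next to Testicle at 23.6% ± 2.87, ahead of Jejunum at 15.7% ± 1.46 and Biceps at 7.18% ± 1.18. For miR-92a-3p longer reads were 92.5% ± 1.52 in WholeBlood and between 97.1% and 97.7% in the 6 other tissues, and the exact RefSeq form was 6.56% ± 1.38 in WholeBlood against 1.53% to 2.00%. In 5 runs, 53.7% to 60.3% of miR-92a-3p reads carried 1 extra base at the 5′ end. They were 1 each of Testicle (rat 5), Ileum (rat 3), Heart (rat 3), Cerebrum (rat 9) and Biceps (rat 10). All 5 were on 1 lane of flow cell C2BUMACXX, and no other isomiR run used here was on that lane. The runs of the same tissues on D2C4RACXX had at most 0.0661%. The cause was not tested.

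**Figure D5:**
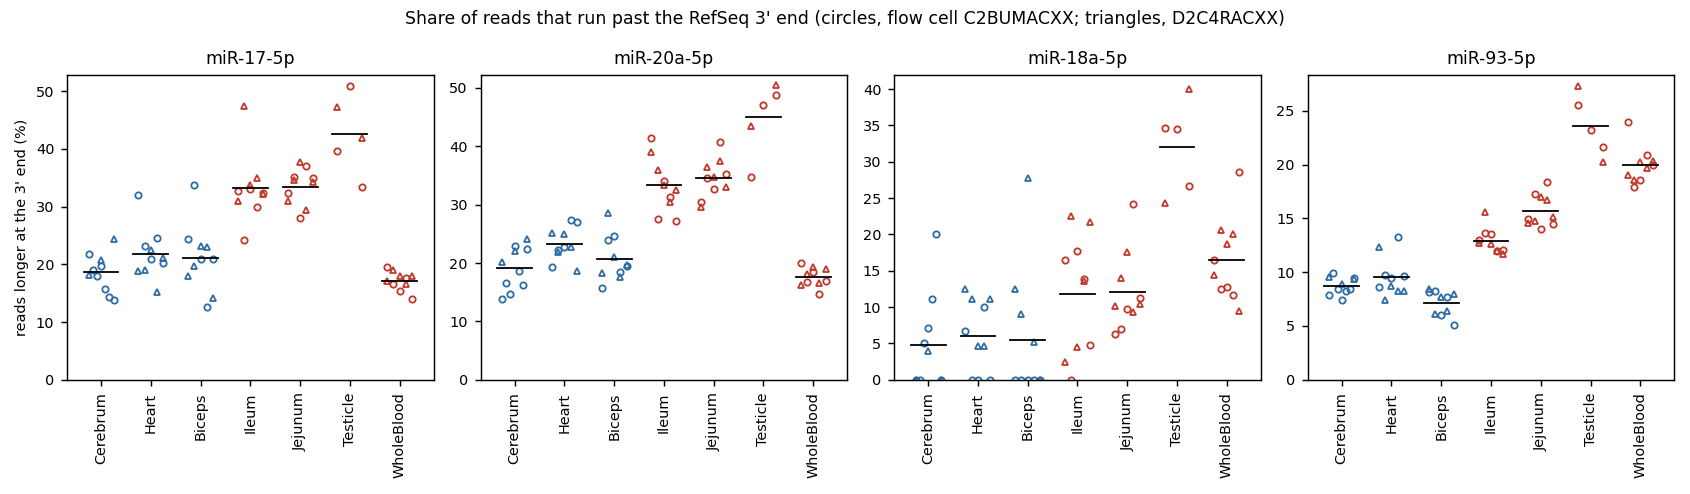
Percent of a member's counts that run beyond the RefSeq 3′ end, 1 point per run and 1 panel each for miR-17-5p, miR-20a-5p, miR-18a-5p and miR-93-5p, in 7 tissues (circles flow cell C2BUMACXX, triangles D2C4RACXX), with black lines at the means. For miR-17-5p and miR-20a-5p Testicle, Jejunum and Ileum lie above Heart, Biceps, Cerebrum and WholeBlood.

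Across the means of the 23 tissues, the members most like each other were those of miR-17-92. The Pearson correlation of mean log2(CPM + 1), given as a description since tissues share rats and CPM shares a total, was 0.98 for miR-19a-3p with miR-19b-3p, 0.959 for miR-20a-5p with miR-92a-3p and 0.953 for miR-17-5p with miR-20a-5p. Pairs within miR-17-92 ran from 0.694 to 0.98 with a median of 0.848, pairs within miR-106b-25 from 0.657 to 0.808, and pairs between the clusters from 0.527 to 0.917 with a median of 0.737. Among 619 names at 10 CPM or more in some tissue, miR-15b-5p was among the 3 most like miR-17-5p (0.928), miR-20a-5p (0.944), miR-92a-3p (0.923), miR-93-5p (0.869) and miR-25-3p (0.809). miR-25-3p was most like miR-106b-3p of its own transcript (0.929), and miR-106b-5p was most like miR-425-5p (0.859).

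Between the sexes, over the 19 tissues taken from both, 0 of 9 members had an exact permutation p under 0.05 (5 against 5 rats, two-sided, 9 tests, not adjusted). The lowest was 0.0873 for miR-18a-5p, higher in males by 0.10 on the log2(CPM + 1) scale. Without the set-apart libraries this became 0.12 with an exact permutation p of 0.0317.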

How the data were processed

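The authors trimmed adaptors from single-end small RNA reads with cutadapt 1.4.1, per the submitters' notes, dropped reads under 17 bases and aligned the rest to miRBase hairpins with the quantifier of miRDeep2. Reads were also aligned to the RN5 rat genome to predict further miRNAs, per the study's methods. They deposited raw counts per miRNA name for 458 sequencing runs and counts per isomiR. Reads that aligned to several names carry a composite name. The 444 runs left after 14 that repeat a lane were summed to 215 libraries, and 65 isomiR columns of 7 tissues were used and 393 were not.

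edgeR 4.0.16 (R 4.3.3) fitted a quasi-likelihood model to all 23 tissues in one fit, 207 samples with the 5 technical libraries of each DRG pool summed, with upper quartile scaling on names past filterByExpr and Benjamini-Hochberg adjustment over all names tested at 0.05. DESeq2 1.42.0 and other scalings were alternatives. Ratios used log2 of counts plus 0.5, and 100000 resamples or exact enumeration (SciPy 1.17.1). Python 3.11.15, numpy 2.4.6, pandas 2.3.3 and matplotlib 3.10.9 did the rest, and the scripts were tested on simulated data.

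Named miRNAs are all members, the fixed list of 21 related miRNAs and the 3 names most correlated with each member. Members and lists were chosen with earlier results of these data known. The same rats gave the tissues, so the replicate number is the rat: deviations from tissue means had a median correlation of 0.0088 between libraries of the same rat (2000 pairs) and -0.0053 between different rats (18025 pairs). p-values over libraries measure the spread between rats, and counting intervals cover counting error only.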

Additional observations from a re-analysis of the deposited data

Results flagged for a closer look

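In groups of 4 to 10 libraries, Dixon's ratio of the end gap to the range marked 34 of 198 combinations of a member and a tissue, where chance alone marks about 1 in 20, or 9.9. Of these, 15 belong to the 10 set-apart libraries. Adrenal rat 8 was the highest Adrenal library for 7 members, at 101.1 CPM of miR-17-5p, 21.0 of miR-18a-5p, 36.3 of miR-19a-3p, 74.4 of miR-20a-5p, 180.7 of miR-19b-3p, 3386 of miR-92a-3p and 408 of miR-93-5p. Uterus rat 8 was the highest for 6, at 116 CPM of miR-17-5p, 26.4 of miR-18a-5p, 30.5 of miR-19a-3p, 88.2 of miR-20a-5p, 224.8 of miR-19b-3p and 3650 of miR-92a-3p. Hippocampus rat 7 was the highest for miR-93-5p at 724 CPM and for miR-25-3p at 1348.

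The other 19 belong to libraries not set apart, of which Cerebrum of rat 9 and Ileum of rat 7 were closer to Hippocampus and Jejunum by 0.0073 and 0.0041 in correlation. In Brainstem, rat 11 was highest for miR-17-5p at 81.9 CPM and miR-18a-5p at 13.6, and rat 9 was lowest for miR-93-5p at 613. In Cerebellum, rat 11 was lowest for miR-92a-3p at 310 CPM, miR-106b-5p at 43.1 and miR-25-3p at 656. In Cerebrum, rat 9 was lowest for miR-20a-5p at 24.0 CPM and miR-19b-3p at 18.1. That rat's Cerebrum run on flow cell C2BUMACXX is among those in which 53.7% to 60.3% of the miR-92a-3p reads had an extra 5′ base. In Ileum, rat 3, which has such a run too, was highest for miR-19b-3p at 207.5 CPM, and rat 7 was highest for miR-17-5p at 107.8.

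In Ovary, rat 9 was lowest for miR-17-5p at 44.4 CPM and miR-19b-3p at 113.9. In Medulla, rat 10 was lowest for miR-18a-5p at 2.75 CPM and rat 7 for miR-19a-3p at 6.42. Soleus of rat 10 was lowest for miR-18a-5p at 0.473 CPM and miR-106b-5p at 18.3. miR-106b-5p was highest in the non-glandular stomach of rat 8 at 18.0 CPM and in Testicle of rat 3 at 199.3, where the other 4 Testicle libraries were at 144 to 155. miR-93-5p was highest in Biceps of rat 2 at 268 CPM. The cause of these deviations was not tested.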

How the results depend on the processing

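Over 99 gut, 135 Testicle and 90 WholeBlood fold changes of members under alternatives, 97, 128 and 90 kept direction and side of the threshold, and so did 84 of 90, 108 of 130 and 80 of 80 ratios. The member counts stayed within 1.5 times in all 3 comparisons, with 7 of 9 called higher in gut by library totals, where miR-25-3p reversed to -0.24. Scaling moved the calls of all names: from 595 higher and 329 lower to 265 and 537 in gut by library totals, from 406 and 318 to 593 and 198 in Testicle, and in WholeBlood from 615 and 289 to 112 and 742, to 301 and 428 with TMM and to 369 and 390 with DESeq2. The median log2 fold change of all names moved from -0.20 to 0.79 in Testicle and from 0.54 to -1.65 in WholeBlood by library totals. Without a filter on low counts the calls of miR-106b-25 in Testicle were lost.

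Ratios past the threshold in Testicle numbered 3 on flow cell D1GBMACXX alone and 0 with the replicate block, and 7 to 8 without each Testicle replicate; the block changed no other call. Ratios that changed sign had not been called. miR-19b-3p over miR-17-5p in gut was -0.22 with the wider resting tissues and -0.0435 without Duodenum. In Testicle miR-92a-3p over miR-17-5p was -0.15 on that flow cell, -0.0689 with the wider resting tissues and -0.0198 to 0.069 without each replicate, miR-93-5p over miR-106b-5p was -0.19 on that flow cell, and miR-25-3p over miR-106b-5p was -0.0502 to 0.041 without each replicate. Members by sex with a p under 0.05 numbered 1 without the set-apart libraries. The 3 alternatives on those libraries and on flow cells of isomiR runs were chosen after seeing the data. The causes were not tested. In Testicle depth limits the low members: the shallowest library had 27 counts of miR-18a-5p.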
